A study of Mus musculus with 22 samples.

Results

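The adhesion G protein-coupled receptors were taken as every gene symbol of the count table that is *Adgr* with a subfamily letter and a number, or *Celsr1* to *Celsr3*, which gave 29 of 24454 symbols. The values were RNA-seq counts from 22 libraries of 25 cells, sorted as VE-Cadherin positive cells from the aorta-gonad-mesonephros (AGM) region of untreated C57BL/6 mouse embryos and amplified with the SMART-Seq2 method for small cell numbers. The AGM is where the first blood stem cells arise from endothelium, and the sort followed that passage with CD44, a hyaluronan receptor, and Kit, a receptor tyrosine kinase. CD44Neg cells, labelled endothelial, gave 10 libraries, of which 4 came from E9.5, 3 from E10 and 3 from E11, and CD44LowKitNeg cells (LoKitNeg in the labels), labelled haemogenic endothelial, gave 6, of which 1 came from E9.5, 2 from E10 and 3 from E11. CD44LowKitPos cells, labelled as precursors of haematopoietic stem and progenitor cells (pre-HSPC), gave 3 (1 at E9.5 and 2 at E10), and CD44High cells, labelled HSPC, gave 3, all at E11. The labels do not say whether libraries of 1 population came from different embryos, so the p-values measure the spread between these libraries, which may be technical.

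Adhesion receptors carry a very long extracellular region and, in nearly all members, a GAIN domain at which the protein is cut into an outer part that can bind matrix or a neighbouring cell and an inner part that spans the membrane. Removal or shifting of the outer part can expose a tethered peptide that switches on G proteins. In vessels the family is known for *Adgrl4*, *Adgrf5* and *Adgra2*, and in blood for *Adgrg1* (GPR56) on stem cells, *Adgre1* (F4/80) on macrophages and *Adgre5* (CD97) on leukocytes.

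The libraries, of 3912350 to 8657546 counts each, were first compared with their labels. The cells were sorted on VE-Cadherin (*Cdh5*), CD44 and, within CD44Low, Kit. *Cd44* was at 29.7 ± 19.4 normalized CPM in CD44Neg (SD, n = 10; CPM after scaling all 22 libraries by TMM) 258 ± 80.2 in CD44LowKitNeg (n = 6), 256 ± 86.3 in CD44LowKitPos (n = 3) and 265 ± 90.4 in CD44High (n = 3), so its RNA separated CD44Neg from the rest but its ranges overlapped between the Low and High gates. *Kit* was at 228 ± 50.2 in CD44LowKitPos (n = 3) against 47.6 ± 17.4 in CD44LowKitNeg. All 6 endothelial markers (*Cdh5*, *Pecam1*, *Kdr*, *Tek*, *Emcn* and *Esam*) had counts in CD44Neg, CD44LowKitNeg and CD44LowKitPos, and their summed level was 2498 to 4760 normalized CPM in CD44Neg, 3070 to 6686 in CD44LowKitNeg and 601 to 1416 in CD44LowKitPos. In CD44High it was 14.3 to 70.4, with *Cdh5* at 0 in all 3 libraries, so the RNA of a gene the cells were sorted on was not detected there (167 ± 81.9 in CD44LowKitPos). The 6 haematopoietic markers (*Ptprc*, *Spn*, *Itga2b*, *Gfi1b*, *Myb* and *Runx1*) summed to 607 to 686 in CD44High and 249 to 545 in CD44LowKitPos. The 8 macrophage markers (*Csf1r*, *C1qa*, *C1qb*, *C1qc*, *Cx3cr1*, *Mrc1*, *Cd68* and *Lyz2*) all had counts in CD44High and summed to 3507 to 5348 there, against at most 225 elsewhere, where *C1qa*, *C1qb* and *C1qc* were at 0. The libraries labelled HSPC also held the macrophage marker set, which the labels do not name. The 6 erythroid markers summed to 47.5 to 256 normalized CPM in CD44High and at most 62.5 elsewhere, and the 6 mesenchymal ones to 137, 101 and 0.263 in replicates 20, 21 and 22 and at most 46.9 elsewhere. The part of these sets in the CD44High results was not tested.

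The windows around the start sites of 4 members are shown because the results turn on them. *Adgrg1* and *Adgrg3* lie next to each other and moved in opposite directions between the endothelial populations, *Adgrg6* was higher in CD44LowKitNeg, and *Adgre4* was at 0 in every endothelial library. They run 5′ to 3′ from 250 bases before to 50 after the start, from RefSeq on GRCm38.p6. Capitals mark matches, on either strand, to TGTGGT (bound by RUNX factors), AGATAA (bound by GATA factors) or AGGAAG (bound by ETS factors), families that act in blood and endothelium. No matches overlapped in these windows.
*Adgrg1* upstream window, chr8:94976859-94977158, plus strand: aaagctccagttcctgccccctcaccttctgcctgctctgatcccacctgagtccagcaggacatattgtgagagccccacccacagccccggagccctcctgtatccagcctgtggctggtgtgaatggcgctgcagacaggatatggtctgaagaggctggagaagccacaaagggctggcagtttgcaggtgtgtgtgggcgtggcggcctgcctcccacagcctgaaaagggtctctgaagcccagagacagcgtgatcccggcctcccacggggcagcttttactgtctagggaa
*Adgrg1* downstream window, chr8:94984149-94984448, plus strand: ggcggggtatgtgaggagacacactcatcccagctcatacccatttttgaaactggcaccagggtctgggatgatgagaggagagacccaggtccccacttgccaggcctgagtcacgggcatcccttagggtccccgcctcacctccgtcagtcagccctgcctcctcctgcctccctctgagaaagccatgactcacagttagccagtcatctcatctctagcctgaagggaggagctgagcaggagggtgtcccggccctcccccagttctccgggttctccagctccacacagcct
*Adgrg3* window, chr8:95017442-95017741, plus strand: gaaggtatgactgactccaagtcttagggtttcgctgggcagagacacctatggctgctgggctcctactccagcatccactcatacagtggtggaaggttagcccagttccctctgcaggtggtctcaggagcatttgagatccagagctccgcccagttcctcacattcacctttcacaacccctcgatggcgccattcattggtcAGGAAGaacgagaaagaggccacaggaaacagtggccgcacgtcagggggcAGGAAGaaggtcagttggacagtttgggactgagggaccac
*Adgrg6* window, chr10:14544987-14545286, minus strand: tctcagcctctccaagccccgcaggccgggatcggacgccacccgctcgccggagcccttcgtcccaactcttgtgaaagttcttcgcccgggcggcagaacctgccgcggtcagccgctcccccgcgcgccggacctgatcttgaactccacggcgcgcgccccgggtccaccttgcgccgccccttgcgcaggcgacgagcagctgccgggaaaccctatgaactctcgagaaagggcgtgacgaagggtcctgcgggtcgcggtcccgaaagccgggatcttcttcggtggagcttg
*Adgre4* window, chr17:55749734-55750033, plus strand: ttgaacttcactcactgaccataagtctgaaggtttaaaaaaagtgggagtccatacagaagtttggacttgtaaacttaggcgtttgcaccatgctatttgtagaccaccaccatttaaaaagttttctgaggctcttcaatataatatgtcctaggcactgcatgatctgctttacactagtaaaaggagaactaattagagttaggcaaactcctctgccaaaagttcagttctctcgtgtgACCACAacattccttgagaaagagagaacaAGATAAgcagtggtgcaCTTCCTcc

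Both *Adgrg1* windows and the *Adgrg6* window held none of the 3 motifs, the *Adgrg3* window held AGGAAG at 2 positions, and the *Adgre4* window held each motif once. Of the 29 members, 21 had a window in the RefSeq table, 25 windows in all. TGTGGT was present in 5 of them, AGATAA in 3 and AGGAAG in 11, against 16.8%, 11.2% and 35.4% of all 32851 windows of the same length. A match is a description of the letters and not a binding site.

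Of the 29 members, 18 passed the filter on low counts in the 22 libraries, and 6 of these had counts in every library. *Adgra1*, *Adgrb1*, *Adgrf1* and *Adgrf4* had 0 counts throughout, which at this depth allows 0.353 to 0.793 normalized CPM per library (3 counts, counting error only). *Adgrb2*, *Adgrb3*, *Adgrd1*, *Adgrf2*, *Adgrf3*, *Adgrg7* and *Celsr3* had counts in at most 5 libraries and never more than 24. Among these, *Adgrf2* reached 24 counts in CD44LowKitNeg replicate 13, *Celsr3* 16 in CD44Neg replicate 7, and *Adgrd1* and *Adgrg7* 10, in CD44LowKitNeg replicate 12 and CD44LowKitPos replicate 19. *Adgrf3* reached 6, and *Adgrb2* and *Adgrb3* 1.

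**Figure D1:**
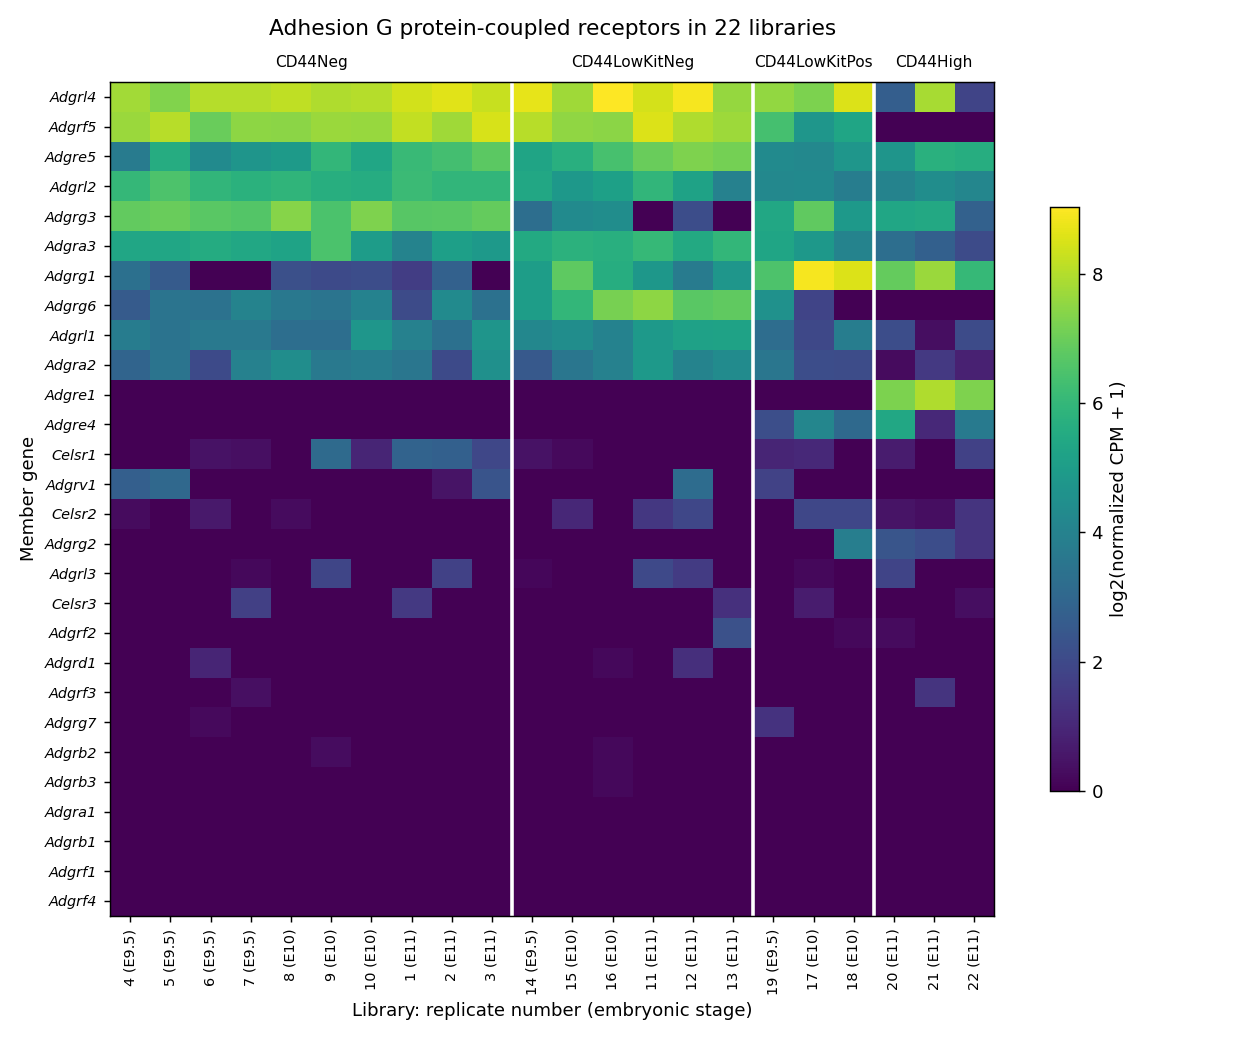
Levels of 28 members (one line each, ordered by mean level) in the 22 libraries, grouped by population and labelled with replicate number and stage, as log2(normalized CPM + 1) in colour. *Adgre1* has signal in the CD44High libraries alone, *Adgrf5* is at 0 there, and 4 members are dark in every library.

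Levels of different members were compared per kb of exon, since longer transcripts yield more reads. On that scale *Adgrl4*, an orphan receptor of vessels, was the highest member in all 10 CD44Neg and all 6 CD44LowKitNeg libraries, with 46.1% ± 6.88 (SD, n = 10) and 46.7% ± 11.95 (n = 6) of the family's summed level. *Adgrf5* followed in CD44Neg with 18.98% ± 4.19, then *Adgrg3* with 13.5% ± 3.54. In CD44LowKitPos, *Adgrg1* took 37.9% ± 18.8 (n = 3) and *Adgrl4* 37.2% ± 14.4, with *Adgrg1* the highest member in replicate 17 and *Adgrl4* in replicates 18 and 19. In CD44High, *Adgre1* was the highest member in all 3 libraries with 46.5% ± 7.01, and *Adgrg1* took 18.2% ± 4.31. The summed level itself was 129 ± 23.1, 166 ± 34.6, 143 ± 46.2 and 128 ± 56.2 normalized CPM per kb from CD44Neg to CD44High, and the ranges of the 4 populations overlapped (104 to 168, 122 to 203, 91.2 to 179 and 90.2 to 192).

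**Figure D2:**
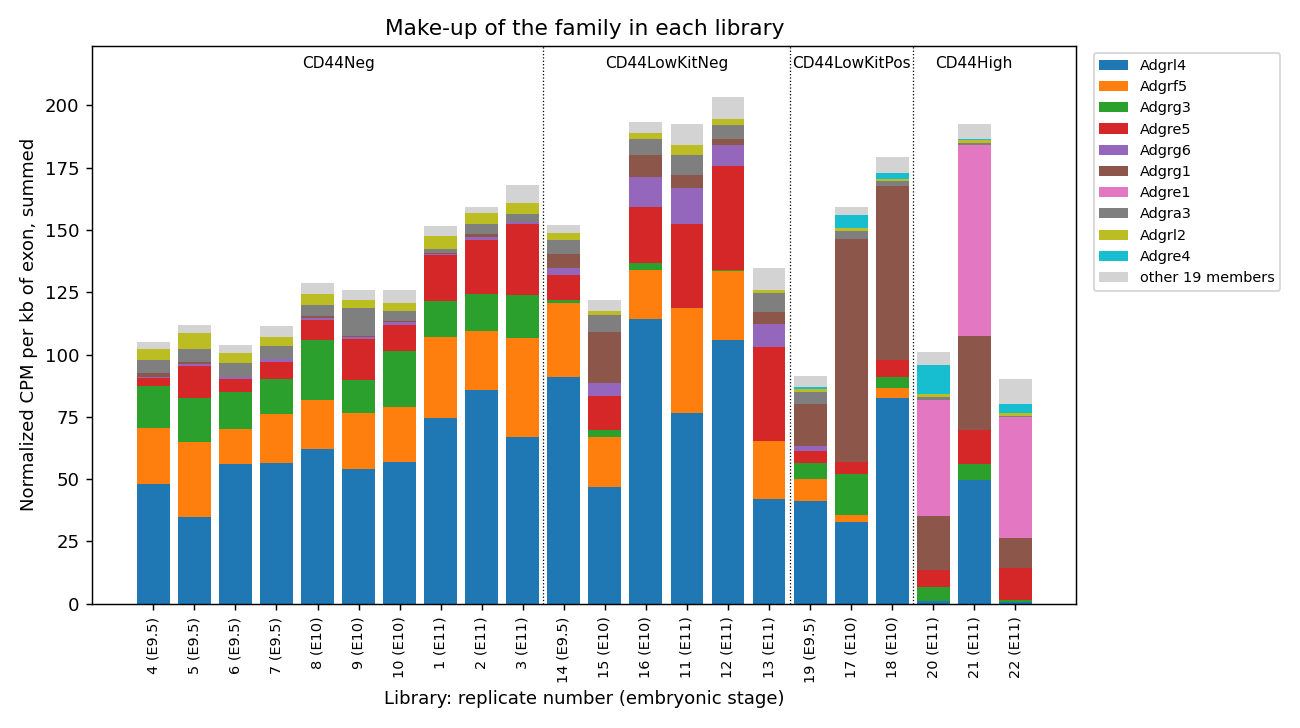
Summed level of the family in each library, in normalized CPM per kb of exon, split by member (colours; grey, the other 19 members), with libraries ordered by population and stage. *Adgrl4* is the largest piece in every CD44Neg and CD44LowKitNeg library, and *Adgre1* in every CD44High library.

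The first comparison asked how the 2 endothelial populations of the AGM differ. Of the family, *Adgrg6* and *Adgrg1* were higher in CD44LowKitNeg and *Adgrg3* was lower, by 9.67-fold, 13.04-fold and 13.89-fold in that order. The most abundant vascular members, *Adgrl4* and *Adgrf5*, had log2 fold changes under 0.4. In all, 3 of the 10 members tested passed an adjusted p under 0.01 (2 higher, 1 lower), against 10.2% of the 11022 genes tested (4.94% higher and 5.23% lower). The median log2 fold change of the members was 0.41, against 0.01 over all genes. *Adgrg6* is one of the genes that the study itself picked from these libraries as marking CD44LowKitNeg cells, so its direction here is not independent of that choice. The paper also reported *Adgrg6* from other data. It was higher in CD44LowKitNeg than in CD44Neg cells by single-cell q-RT-PCR, and expressed in haemogenic endothelium of a published single-cell dataset.

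*Adgrg6* (GPR126), known for its part in Schwann cell myelination and heart development and for binding collagen IV, lies on chromosome 10 from 14402583 to 14545659, on the minus strand. It was at 3.17 to 18.8 normalized CPM in CD44Neg (median 10.2). In CD44LowKitNeg it was at 31.8 at E9.5, 62.7 and 146 at E10, and 180.3, 105 and 114 at E11. Every CD44LowKitNeg library lay above every CD44Neg library. The log2 fold change was 3.27 (SE 0.36, Benjamini-Hochberg adjusted p = 6.4e-06 by the edgeR quasi-likelihood test), and it kept its call under all 24 alternatives.

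*Adgrg1*, a receptor for collagen III that marks haematopoietic stem and progenitor cells, was at 0 to 9.02 normalized CPM in CD44Neg, with 3 of 10 libraries at 0 and a median of 3.23. In CD44LowKitNeg it was at 32.0 at E9.5, 110.5 and 49.1 at E10, and 26.4, 12.5 and 25.9 at E11. All 6 values exceeded all 10 of CD44Neg, and replicate 15 from E10 stood above the rest. The log2 fold change was 3.71 (SE 0.79, Benjamini-Hochberg adjusted p = 0.0025 by the edgeR quasi-likelihood test). The call was lost without replicate 15 (3.18, adjusted p = 0.0138) and within E11 alone (3.03, adjusted p = 0.169). The summed haematopoietic markers of CD44LowKitNeg were also highest in replicate 15 (159 normalized CPM, against 0.312 to 74.2 in the other 5), and their part in the difference was not tested.

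*Adgrg3* (GPR97), best known from granulocytes and other leukocytes, was at 88.9 to 166.5 normalized CPM in CD44Neg (median 110.4). It was at 8.59 at E9.5 and 19.1 and 20.7 at E10 in CD44LowKitNeg, and at 0, 3.43 and 0 at E11. There was no overlap between the populations. The log2 fold change was −3.80 (SE 0.71, Benjamini-Hochberg adjusted p = 8.2e-04 by the edgeR quasi-likelihood test), and the call held under all 24 alternatives.

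*Adgrg1* and *Adgrg3* are neighbours. On the plus strand of chromosome 8, *Adgrg1* (94974751 to 95014217) is followed after 3.5 kb by *Adgrg3* (95017692 to 95045250), with no protein-coding gene between them in GENCODE vM21. *Adgrg1* was highest on average in CD44LowKitPos and *Adgrg3* in CD44Neg, and between the endothelial populations both were called, in opposite directions. Against CD44LowKitNeg the 2 genes shared a direction. Both were higher, though not called, in CD44LowKitPos (log2 fold changes of 2.93 and 2.87) and in CD44High (1.64 and 1.82).

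**Figure D3:**
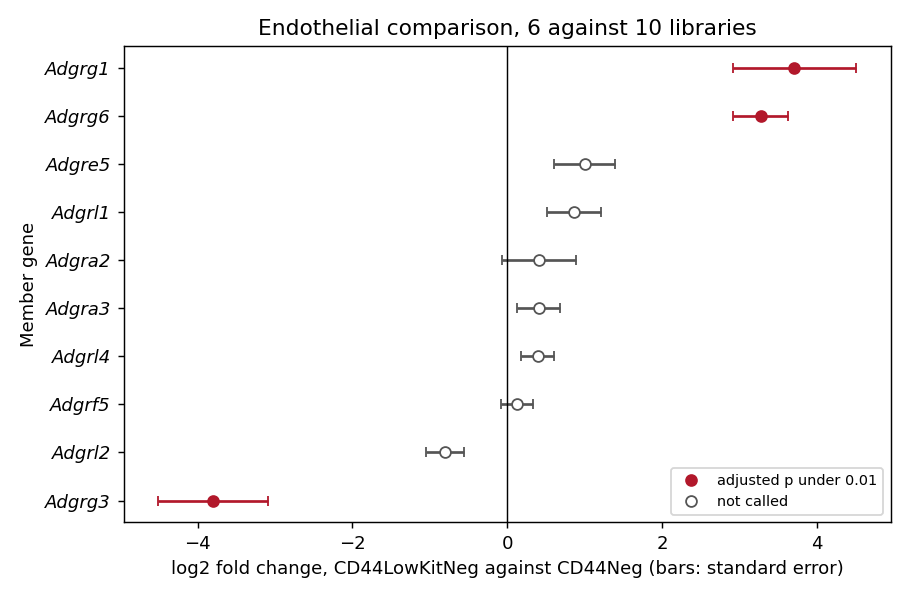
Log2 fold change of the 10 members tested between CD44LowKitNeg (6 libraries) and CD44Neg (10 libraries), with bars for the standard error and filled points for an adjusted p under 0.01. *Adgrg1* (3.71) and *Adgrg6* (3.27) lie on the right and *Adgrg3* (−3.80) on the left, and the other 7 lie between −0.80 and 0.998.

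Among the latrophilins, which bind teneurins and FLRT proteins, *Adgrl2* was at 47.6 to 90.4 normalized CPM in CD44Neg (median 60.1) and at 14.8 to 60.5 in CD44LowKitNeg (median 35.0). The ranges overlapped, and the log2 fold change of −0.80 (SE 0.25, Benjamini-Hochberg adjusted p = 0.0263 by the edgeR quasi-likelihood test) was not called; without CD44LowKitNeg replicate 11 it was (−1.02, adjusted p = 0.00637). *Adgrl1* was at 8.57 to 25.6 and 15.04 to 36.1 normalized CPM (0.86, adjusted p = 0.0863). *Adgrl4*, which shares their subfamily, was at 160.4 to 393 and 192 to 524 normalized CPM in the 2 populations (0.39, adjusted p = 0.218), and *Adgrf5* (GPR116) at 125 to 357 and 177 to 380 (0.13, adjusted p = 0.733). The A subfamily members *Adgra2* (GPR124, the co-receptor of WNT7 signals in brain vessels) and *Adgra3* (GPR125) had a log2 fold change of 0.41 and 0.41 (adjusted p = 0.613 and 0.332). *Adgre5*, which binds CD55, was at 12.6 to 107 in CD44Neg and 37.4 to 157 in CD44LowKitNeg (0.998, adjusted p = 0.0825).

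*Adgre5* shares 895 exonic bases with *Ddx39*, a helicase gene on the opposite strand, and the strand setting of the counting is not given in the sources used here, so reads of the shared bases cannot be told apart. *Ddx39* was at 479 ± 184 normalized CPM in CD44Neg (SD, n = 10) and 147 ± 87.5 in CD44LowKitNeg (n = 6), a fall of its own (−1.73, Benjamini-Hochberg adjusted p = 8.7e-04 by the edgeR quasi-likelihood test). *Adgra2* shares 73 exonic bases with *Brf2* in the same manner.

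**Figure D4:**
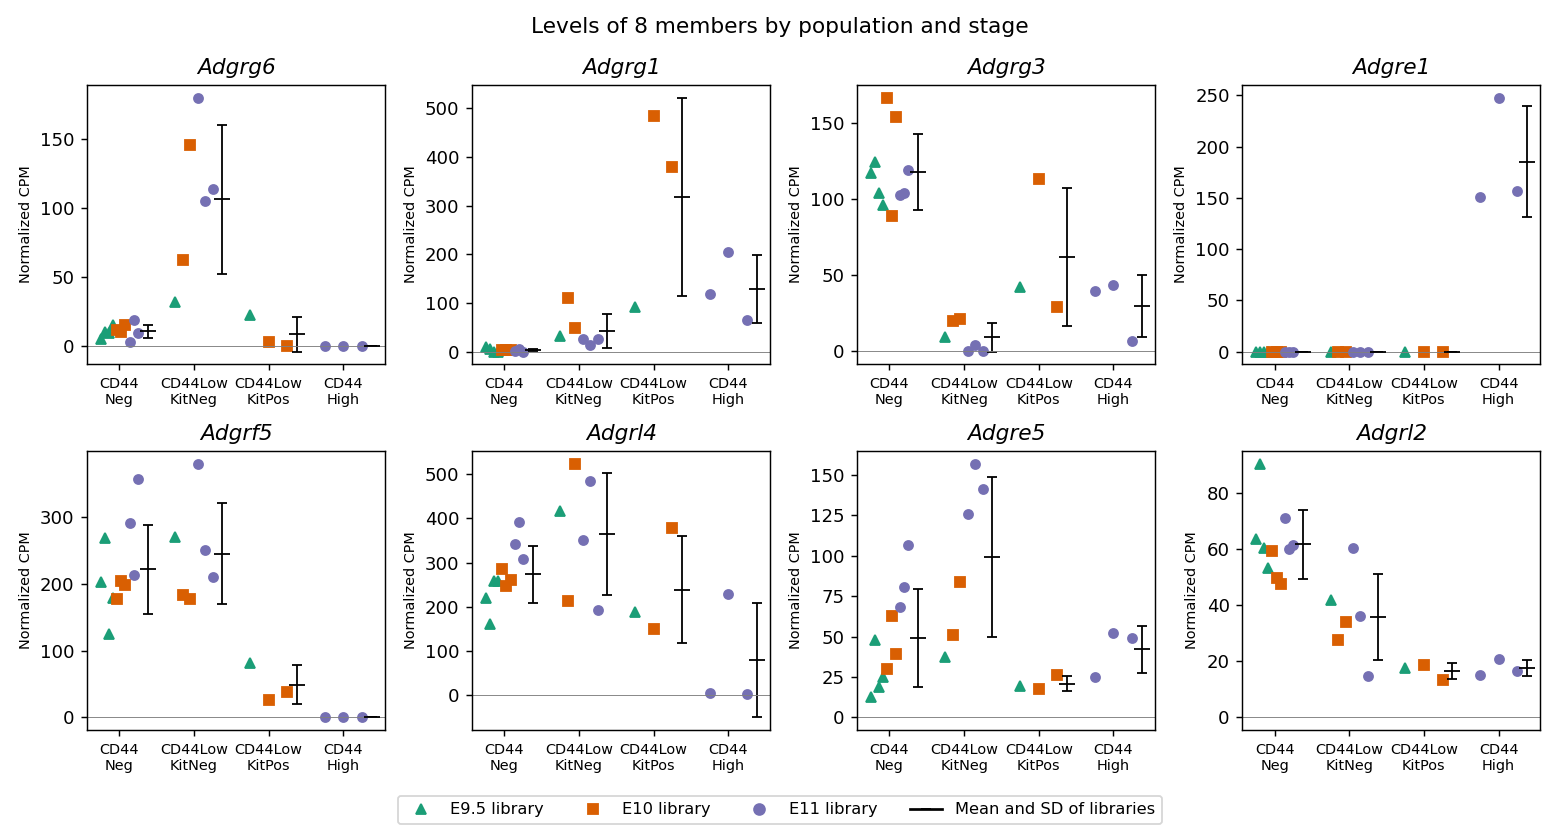
Normalized CPM of 8 members in each library (triangles E9.5, squares E10, circles E11) by population, with the mean and SD of the libraries beside the points. *Adgrg6* peaks in CD44LowKitNeg, *Adgrg1* in CD44LowKitPos and *Adgre1* in CD44High, where *Adgrf5* and *Adgrg6* are at 0 and *Adgrl4* is high in 1 of 3 libraries.

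The passage to CD44LowKitPos was examined against both endothelial populations, which share the CD44LowKitPos libraries. Against CD44Neg, *Adgrg1* and *Adgre4* were higher and *Adgrf5* and *Adgrl2* lower. Against CD44LowKitNeg, *Adgre4* was higher and *Adgrf5* lower. This was 4 of the 18 members tested (2 higher, 2 lower) against CD44Neg, beside 3.48% of all 12949 genes (2.08% higher, 1.41% lower), and 2 of 18 (1 higher, 1 lower) against CD44LowKitNeg, beside 4.26% (2.55% higher, 1.71% lower). The higher member against CD44LowKitNeg, and 1 of the 2 against CD44Neg, was *Adgre4*, which passed the filter only through the groups in which it had counts. The median log2 fold change of the members was −0.65 and −0.64, against −0.01 and −0.02 over all genes. With DESeq2's size factors the median of all genes against CD44LowKitNeg was 0.13 lower and 218 genes were higher and 273 lower, where TMM gave 330 and 222; the member counts in each direction did not change. Over all genes the calls of this comparison also fell to 65 without CD44LowKitPos replicate 17 and to 160 without replicate 18, were 228 higher and 430 lower without replicate 19, and were 28 higher and 93 lower with matched stages. Against CD44Neg they were 451 (269 higher, 182 lower), but 182 without replicate 17 and 159 without replicate 18. Without replicate 19 they were 269 higher and 361 lower, and by DESeq2's Wald test 262 higher and 567 lower. In bulk samples of this kind, fewer cells of a type and less RNA per cell cannot be told apart.

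*Adgrg1* was at 91.4 normalized CPM at E9.5 and at 484 and 379 at E10 in CD44LowKitPos. Both E10 libraries lay above every other library of the series. The log2 fold change was 6.64 against CD44Neg (SE 0.75, Benjamini-Hochberg adjusted p = 8.4e-06 by the edgeR quasi-likelihood test) and held under all 20 alternatives, whereas against CD44LowKitNeg it was 2.93 (SE 0.81, adjusted p = 0.0195) and not called. The E9.5 library lay below CD44LowKitNeg replicate 15. The E9.5 library also had the lowest sum of haematopoietic markers of the 3 (249 normalized CPM, against 493.5 and 545) and the highest of endothelial ones (1416, against 601 and 953), and the part of either was not tested.

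*Adgre4* (EMR4), known from mouse macrophages and other myeloid cells, was at 0 in all 16 endothelial libraries and at 3.45 at E9.5 and 16.8 and 7.61 normalized CPM at E10 in CD44LowKitPos. It was at least 21.9-fold higher than in CD44LowKitNeg and at least 15.4-fold higher than in CD44Neg, taking 3 counts per library for a count of 0 (at least 13.01-fold and 9.17-fold without replicate 17). The Benjamini-Hochberg adjusted p by the edgeR quasi-likelihood test was 0.00744 and 0.00311. *Adgre4* passed the filter only through CD44LowKitPos and CD44High, the groups in which it had counts. The call against CD44LowKitNeg was lost in 10 of 16 alternatives, where the adjusted p reached 0.107, and that against CD44Neg in 4 of 20, where it reached 0.018. CD44LowKitPos summed 166 to 225 normalized CPM of the macrophage markers, against 0 to 73.5 in the endothelial libraries. Most of that sum was *Lyz2* (182 ± 33.4, n = 3), and *C1qa*, *C1qb* and *C1qc* were at 0. Of the 8 markers, 1 was called higher against CD44LowKitNeg and 2 against CD44Neg, beside 2.55% and 2.08% of all genes. The part of these markers was not tested.

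*Adgrf5*, by contrast, was lower in CD44LowKitPos, at 81.9 at E9.5 and 25.9 and 38.7 normalized CPM at E10, below all 16 endothelial libraries. Endothelial markers were lower as well, 4 of 6 being called against CD44LowKitNeg (median log2 fold change −2.43) and 2 of 6 against CD44Neg (−1.57), and their part was not tested. The log2 fold change was −2.30 against CD44LowKitNeg (SE 0.38, Benjamini-Hochberg adjusted p = 8.0e-04 by the edgeR quasi-likelihood test) and −2.18 against CD44Neg (SE 0.36, adjusted p = 5.7e-04). The first was lost without replicate 17 (−2.03, adjusted p = 0.0123) and with these 2 populations alone (−2.33, adjusted p = 0.0185), and the second without replicate 18 (−2.04, adjusted p = 0.0102). *Adgrl2* was at 17.6, 18.7 and 13.4 normalized CPM, below every CD44Neg library (−1.90, SE 0.34, adjusted p = 0.00106; 0.0155 without replicate 18), and its difference from CD44LowKitNeg was not called (−1.09, SE 0.34, adjusted p = 0.0385). *Adgrl4* was at 188, 150.3 and 378, within the range of the endothelial libraries for 2 of 3.

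For 4 further members the adjusted p against CD44LowKitNeg by the edgeR quasi-likelihood test lay between the thresholds of 0.01 and 0.05. *Adgrg6* was at 22.8 normalized CPM in the E9.5 library and at 2.60 and 0 in the E10 ones, all below CD44LowKitNeg (−3.62, SE 0.96, adjusted p = 0.0162; −6.36 and called without the E9.5 library, adjusted p = 7.5e-04). *Adgrg3* was at 42.2 at E9.5 and 113 and 28.6 at E10, above every CD44LowKitNeg library (2.87, SE 0.81, adjusted p = 0.0222, and 2.03 to 3.3 without 1 library). So the 3 populations stood in the order CD44Neg, CD44LowKitPos, CD44LowKitNeg for this receptor, and CD44LowKitPos overlapped with CD44Neg. *Adgre5* was at 17.4 to 26.04 (−2.22, SE 0.59, adjusted p = 0.016), while *Ddx39* was at 430.1 ± 117 (n = 3). Over the alternatives the log2 fold change of *Adgre5* ran from −2.44 to −1.26. Its adjusted p ran from 4.6e-04 by DESeq2's Wald test, which called it, to 0.146 by edgeR. *Adgrg2* (GPR64), an epididymal receptor, had 101 counts in replicate 18 and none in the other 2 (adjusted p = 0.049 against CD44LowKitNeg and 0.0339 against CD44Neg), so the value rests on 1 library.

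CD44High was compared with each of the other populations. *Adgre1* was higher than in each other population, and *Adgrf5*, *Adgrg6* and *Adgra3* were lower than in each. Against CD44LowKitPos 4 of 18 members were called (1 higher, 3 lower), beside 3.01% of all genes (0.78% higher, 2.23% lower). Against CD44LowKitNeg it was 7 (2 higher, 5 lower), beside 16% (7.79% higher, 8.17% lower), and against CD44Neg 9 (3 higher, 6 lower), beside 14.4% (7.14% higher, 7.25% lower). The higher calls against CD44LowKitPos and CD44LowKitNeg, and 2 of the 3 against CD44Neg, were *Adgre1* and *Adgre4*, which passed the filter only through groups in which they were high. The median log2 fold change of the members was −1.16, −0.62 and −1.52, against −0.02, 0.00 and −0.02 over all genes. These 3 comparisons share the CD44High libraries, and no stage holds both CD44High and CD44LowKitPos, so stage and population cannot be told apart between them. Over all genes, CD44High against CD44LowKitPos gave 101 higher and 289 lower, but 141 and 63 in a fit of these 2 populations alone.

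*Adgre1*, which encodes F4/80, was at 150.7, 248 and 157 normalized CPM in CD44High (598 to 943 counts) and at 0 in the other 19 libraries. It was at least 424-fold higher than in CD44LowKitPos, at least 436-fold higher than in CD44LowKitNeg and at least 307-fold higher than in CD44Neg. The Benjamini-Hochberg adjusted p by the edgeR quasi-likelihood test was 1.8e-04, 7.2e-06 and 2.0e-06. *Adgre1* passed the filter only through the CD44High libraries, so its entry among the members tested already required it to be high there. DESeq2's Wald test gave 0.165, 0.0308 and 0.0269, which are not called, and with stage as a covariate the call against CD44LowKitPos was lost (adjusted p = 1). No alternative reversed the direction, and the counts behind these tests were 598 to 943 in CD44High against 0 elsewhere. The macrophage markers, 3507 to 5348 normalized CPM in sum, moved with *Adgre1*, and *C1qa*, *C1qb* and *C1qc* shared its restriction to the 3 CD44High libraries. Their part in the result was not tested.

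*Adgre4* was at 41.3, 1.05 and 12.3 normalized CPM in CD44High, at least 42.9-fold higher than in CD44LowKitNeg (15.8-fold without replicate 20) and at least 30.2-fold higher than in CD44Neg (11.1-fold without it). The Benjamini-Hochberg adjusted p by the edgeR quasi-likelihood test was 0.00151 and 4.5e-04. Its lowest library, replicate 21, was the highest for *Adgre1*, so these 2 related receptors did not rank the 3 libraries alike. The call against CD44LowKitNeg was lost without replicate 20 (adjusted p = 0.01), with matched stages (0.0106) and with stage as a covariate (0.0111); the last 2 also ended the call against CD44Neg (0.0196 and 0.0163).

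*Adgrg1* remained high in CD44High, at 118, 204 and 65.1 normalized CPM, above all CD44Neg libraries (5.35, SE 0.74, Benjamini-Hochberg adjusted p = 7.5e-06 by the edgeR quasi-likelihood test, called under all 20 alternatives). It was not called against CD44LowKitNeg (1.64, SE 0.81, adjusted p = 0.141) or CD44LowKitPos (−1.29, SE 0.98, adjusted p = 0.564). *Adgrg2* had 1.58 to 4.17 normalized CPM in CD44High and 0 in both endothelial populations, where the adjusted p was 0.034 against CD44LowKitNeg and 0.0174 against CD44Neg. It passed the filter only through CD44High and 1 CD44LowKitPos library, the libraries in which it had counts. *Adgrg3* was at 39.3, 43.3 and 6.04 and *Adgre5* at 25.2, 52.0 and 49.1, neither called against any population.

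Of the receptors abundant in endothelium, *Adgrf5* had 0 counts in the 3 CD44High libraries, at least 67.5-fold lower than in CD44LowKitPos (44.6-fold without CD44LowKitPos replicate 19), at least 339-fold lower than in CD44LowKitNeg and at least 306-fold lower than in CD44Neg. The Benjamini-Hochberg adjusted p by the edgeR quasi-likelihood test was 4.3e-08, 3.4e-10 and 2.9e-10, and these calls held under every alternative run. *Adgrg6* also had 0 counts, at least 147-fold lower than in CD44LowKitNeg and at least 14.98-fold lower than in CD44Neg (adjusted p = 2.7e-05 and 7.0e-04). Against CD44LowKitPos it was at least 11.7-fold lower (adjusted p = 0.006), but 1.80-fold without CD44LowKitPos replicate 19 (adjusted p = 0.0775), and the call was also lost without any 1 of the CD44High libraries or with stage as a covariate.

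*Adgra3* was at 8.54, 5.78 and 3.15 normalized CPM in CD44High, below all other libraries. Its log2 fold change was −3.16 against CD44LowKitNeg (SE 0.49, adjusted p = 3.7e-05), −2.76 against CD44Neg (SE 0.46, adjusted p = 9.4e-05) and −2.21 against CD44LowKitPos (SE 0.50, Benjamini-Hochberg adjusted p = 0.00696 by the edgeR quasi-likelihood test). The last was lost in 6 of 12 alternatives. These were leaving out CD44LowKitPos replicate 17 or 19 or CD44High replicate 21 or 22 (adjusted p up to 0.0462), stage as a covariate (−1.815, adjusted p = 0.0697) and the 2 populations alone (−2.25, adjusted p = 0.0758). *Adgra2* was at 0.199, 1.84 and 0.787, below every other library, and called against both endothelial populations (−3.99, SE 0.91, adjusted p = 0.00207, and −3.59, SE 0.88, adjusted p = 0.00369), though not without CD44High replicate 20 or 22 (adjusted p up to 0.0277) nor, against CD44LowKitNeg, with the 2 populations alone (adjusted p = 0.0113). Without 1 library its log2 fold change ran from −5.02 to −3.61 against CD44LowKitNeg and from −4.58 to −3.17 against CD44Neg. *Adgrl1* was at 3.38, 0.263 and 3.15 (−3.42 against CD44LowKitNeg, SE 0.73, adjusted p = 0.00102, and −2.57 against CD44Neg, SE 0.67, adjusted p = 0.00655, the latter lost in 6 of 20 alternatives, among them each CD44High library left out).

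The latrophilin *Adgrl2* kept 15.3, 20.8 and 16.5 normalized CPM in CD44High. It was below all CD44Neg libraries (−1.80, SE 0.34, Benjamini-Hochberg adjusted p = 3.6e-04 by the edgeR quasi-likelihood test) and near CD44LowKitPos (0.10, SE 0.38, adjusted p = 0.959), while against CD44LowKitNeg it was not called (−0.99, SE 0.34, adjusted p = 0.0346). *Adgrl4* was at 5.56 and 2.63 in replicates 20 and 22 but at 228 in replicate 21, within the range of the endothelial libraries. It was not called against CD44LowKitNeg with all libraries (−2.17, SE 0.79, adjusted p = 0.044), whereas without replicate 21 it was (−6.49, adjusted p = 5.6e-08). The summed endothelial markers of replicate 21 were 70.4 normalized CPM, against 14.3 and 29.9 in the other CD44High libraries and at least 2498 in endothelium, and *Cdh5* was at 0 in it.

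The other members described here that passed the filter were low wherever they had counts. *Adgrl3* was at most 2.98 normalized CPM and had counts in 8 libraries. *Adgrv1*, a very large receptor of the inner ear, was at most 8.05 and had counts in 6. *Celsr1*, a planar cell polarity cadherin, had counts in 13 libraries, was at 0 to 7.76 in CD44Neg and at most 0.353 in CD44LowKitNeg, and *Celsr2* had counts in 11 libraries and was at most 2.80 in any. None of these 4 had an adjusted p under 0.05 in any comparison of populations.

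Stage was examined within the endothelial populations. The date in the labels changes with the stage, so date and stage cannot be told apart. Of the 12 members tested within CD44Neg, edgeR's quasi-likelihood test called 0 between E11 and E9.5, 0 between E10 and E9.5 and 0 between E11 and E10, beside 0.684%, 0.0178% and 0% of 11250 genes. At an unadjusted p under 0.05 there were 4, 2 and 3 members, beside 17.1%, 15.2% and 8.68% of all genes, and DESeq2's Wald test called 1, 0 and 0, beside 3.81%, 2.05% and 0.4%. The 1 was *Adgre5*, at 12.6 to 47.8 normalized CPM in the 4 libraries from E9.5, 29.7 to 62.5 in the 3 from E10 and 68.5 to 107 in the 3 from E11. The E11 libraries lay above all earlier ones (E11 against E9.5 1.71, SE 0.41, Benjamini-Hochberg adjusted p = 0.0358 by the edgeR quasi-likelihood test; 0.00379 from DESeq2). *Ddx39* had a log2 fold change of −1.09 (adjusted p = 0.0123) in the same comparison.

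Within CD44LowKitNeg, edgeR's quasi-likelihood test called 0 of 10 members between E11 and the earlier stages, beside 0.173% of 11010 genes, with 2 at an unadjusted p under 0.05 (16.8% of all genes) and 1 called by DESeq2's Wald test (5.07% of all genes). That 1 was again *Adgre5*, at 37.4 to 83.5 normalized CPM before E11 and 126 to 157 at E11 (1.35, SE 0.34, adjusted p = 0.0826; 0.00811 from DESeq2). The dependence of the difference between the endothelial populations on stage was called for 0 of 10 members, beside 0.209% of 11022 genes, with 1 at an unadjusted p under 0.05 (12.5% of all genes) and 0 by DESeq2 (1.61%). *Adgrg3* was the nearest (−3.23, SE 0.89, Benjamini-Hochberg adjusted p = 0.111 by the edgeR quasi-likelihood test), with its CD44LowKitNeg values of 0, 3.43 and 0 at E11 and 8.59 to 20.7 earlier, against 102 to 119 and 88.9 to 166.5 in CD44Neg. The summed haematopoietic markers of CD44LowKitNeg were at 0.312 to 10.2 normalized CPM at E11 and 67.6 to 159 earlier, with *Runx1* called lower at E11, and their part was not tested. It passed the threshold without CD44LowKitNeg replicate 12, the only one from E11 with counts, and without a filter on low counts (adjusted p = 1.2e-04 and 1.2e-07).

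Partners of the family were followed in 3 lists. Of 27 genes reported to bind members, 12 were tested between the endothelial populations and 1 was called, *Flrt2*, a partner of latrophilins, which was lower in CD44LowKitNeg (−1.78, SE 0.39, Benjamini-Hochberg adjusted p = 0.00282 by the edgeR quasi-likelihood test), beside 10.2% of all genes called in either direction. DESeq2's Wald test called 3 higher and 2 lower (8.14% and 7.7% of all genes), and 8 had an unadjusted p under 0.05 (32.5% of all genes). *Prnp*, the prion protein and an agonist of the *Adgrg6* receptor, had a log2 fold change of 1.11 (adjusted p = 0.012), and *Cd55*, the ligand of the *Adgre5* receptor, one of 1.69 (adjusted p = 0.0148). In CD44LowKitPos against CD44LowKitNeg 4 of 14 were lower, *Plvap*, *Fzd4* and the collagen IV chains *Col4a1* and *Col4a2*, and against CD44Neg 2, *Plvap* and *Flrt2*, beside 1.71% and 1.41% of all genes. DESeq2 called 6 and 5 lower, beside 6.46% and 4.38% of all genes. In CD44High 9 of 14 were lower than in CD44LowKitNeg, among them *Reck*, the partner of *Adgra2* (0 counts in CD44High), *Col4a1* (−6.70) and *Col4a2* (−6.67), while 9 were lower than in CD44Neg and 8 than in CD44LowKitPos, beside 8.17%, 7.25% and 2.23% of all genes. The edgeR test and DESeq2 called 0 higher in these 5 comparisons. Endothelial markers were lower in them as well, all 6 being called in CD44High against each other population, and their part was not tested. Within CD44Neg, *Col4a1* and *Plvap* were higher at E11 than at E9.5, where 0.684% of all genes were called. DESeq2 called 5 higher there, beside 1.94% of all genes. The median log2 fold change of the tested partners was 0.63 between the endothelial populations and −4.25 in CD44High against CD44LowKitNeg, against 0.01 and 0.00 over all genes.

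Of 19 genes of signal transduction below the receptors (G protein subunits, RhoGEFs, arrestins and the *Elmo1* and *Dock1* pair among them), the edgeR quasi-likelihood test called 0 of 16 between the endothelial populations, beside 10.2% of all genes. DESeq2 called 0 as well, beside 15.8% of all genes. At an unadjusted p under 0.05 there were 3 (*Gnai2*, *Gna11* and *Gna13*), beside 32.55% of all genes. In CD44LowKitPos the edgeR test called 0 of 18 against CD44LowKitNeg, beside 4.26% of all genes. There 5 had an unadjusted p under 0.05, beside 27.2% of all genes, and DESeq2 called 3 lower, beside 6.46%. Against CD44Neg the edgeR test called 1, *Gnai2*, which was lower (1.41% of all genes were), and DESeq2 called 1 higher and 3 lower (2.02% and 4.38% of all genes). In CD44High against CD44LowKitNeg 4 of 18 were lower (*Arhgef12*, *Gna11*, *Dock1* and *Gnai1*) and 1 was higher, the arrestin *Arrb2* (2.96, SE 0.76, Benjamini-Hochberg adjusted p = 0.00522 by the edgeR quasi-likelihood test). Over all genes 8.17% were lower and 7.79% higher in that comparison. Against CD44Neg 5 were lower and 1 higher (7.25% and 7.14% of all genes), and against CD44LowKitPos 2 were lower, *Dock1* and *Gna11* (2.23% of all genes). Within CD44Neg, 1 of 17 was called between E11 and E9.5, *Gnas*, which was higher at E11, beside 0.684% of all genes. DESeq2 called 2 higher there, beside 1.94% of all genes. The median between the endothelial populations was −0.06.

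Of 10 planar cell polarity partners of the *Celsr* members, 2 were higher in CD44LowKitNeg than in CD44Neg, the receptor *Fzd3* (1.79, SE 0.34, Benjamini-Hochberg adjusted p = 9.2e-04 by the edgeR quasi-likelihood test) and *Prickle2* (3.26, SE 0.84, adjusted p = 0.00967), with a median of 0.67, beside 4.94% of all genes. *Fzd6* was lower in CD44LowKitPos than in CD44LowKitNeg, and *Fzd3*, *Fzd6* and *Prickle1* were lower in CD44High than in either endothelial population, where 1.71%, 8.17% and 7.25% of all genes were lower. In the same libraries the neuronal gene *Stmn2* was higher in CD44LowKitNeg (2.48, SE 0.37, adjusted p = 1.2e-04), and the part of such RNA in these differences was not tested.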

How the data were processed

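The data were 22 RNA-seq libraries, each of 25 cells, from 4 populations and 3 stages. After SMART-Seq2 amplification, the authors trimmed reads (FASTX), mapped them (RNA STAR), counted them per gene (htseq-count) and deposited the raw counts. Their processing notes name mm10, FastQC and HTSeq, and the annotation and strand setting are not given in the sources used here. The deposited counts are whole numbers for 24454 symbols. Every column matched 1 library, and depth was 3912350 to 8657546 counts (median 5758382.5). A count of 0 allows 3 counts, which covers counting error only, since no molecular identifiers were used.

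Counts were filtered with filterByExpr (minimum count 10, minimum total 15), scaled by TMM and tested with the quasi-likelihood test of edgeR 4.0.16 in R 4.3.3, with Benjamini-Hochberg adjustment over all genes tested and calls at an adjusted p under 0.01. CD44LowKitNeg was compared with CD44Neg over 16 libraries, the other populations in 1 fit of 22 libraries, and stages within a population. SEs were derived from the F statistic. Exon lengths came from GENCODE vM21 (GRCm38, the coordinates of mm10), in which all 29 members were found. Alternatives were an adjusted p of 0.05, DESeq2's size factors, no filter, the Wald test of DESeq2 1.42.0, stage as a covariate, matched stages, the E11 libraries alone, other sets of libraries in the fit, and leaving out each library. Over 20 pairs of libraries of 1 population and stage, the chi-square of their counts per degree of freedom was 17 to 85.2, so none was counted as a library sequenced again; with reads of amplified RNA this does not tell whether libraries share starting material. The steps were tested on simulated data. The members, the lists and the rules for naming were chosen with earlier results of these data known. Members were named for a difference where the adjusted p was under 0.05, others where set beside one. The windows and motifs shown were chosen after their values were seen. The values of 1 member and of 1 marker gene are not reported here.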

Additional observations from a re-analysis of the deposited data

Results flagged for a closer look

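In each group of 4 to 10 libraries, a member was listed where its highest or lowest library lay far from the others by Dixon's test, which chance meets in about 1 of 20 groups. Of 28 groups tested, 4 were listed. *Adgra3* was at 88.2 normalized CPM in CD44Neg replicate 9, against 15.6 to 45.7 in the other libraries of that population. *Adgrg1* was at 110.5 in CD44LowKitNeg replicate 15, against 12.5 to 49.1. *Adgrv1* was at 8.05 in CD44LowKitNeg replicate 12, with 0 in the other 5. *Celsr2* was at 0.55 in CD44Neg replicate 6, against 0 to 0.199, which is 3 counts and so no more than the limit that a count of 0 allows.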

How the results depend on the processing

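Alternatives were run for 43 pairs of member and comparison, 29 of them called. Of the 750 values, 672 kept their direction and their side of the threshold, 51 kept their direction and lost the call, 27 gained it and 0 changed direction; 13 of the 29 calls held under every alternative. *Adgrg2* gave no value in CD44LowKitPos against either endothelial population without replicate 18, since both groups were then at 0. The number of members called in CD44LowKitPos against CD44LowKitNeg (2) was 8 at an adjusted p under 0.05, 5 by DESeq2's Wald test, 1 when stage was a covariate, 1 with matched stages, 0 with the 2 populations alone and 0 to 3 without 1 library; over all genes the share called in these settings was 12.5%, 9.77%, 2.83%, 0.934% and 0.128%, against 4.26%. Against CD44Neg (4) it was 1 to 4 without 1 library, where 1.175% to 4.654% of all genes were called, beside 3.48% with all libraries. For CD44High against CD44LowKitPos (4) it was 1 with stage as a covariate, 2 with the 2 populations alone and 2 to 4 without 1 library (2.73% and 1.86% of all genes in the first 2 settings, against 3.01%). Within CD44Neg, E11 against E9.5 (0) gave 1 at an adjusted p under 0.05, 1 without a filter and 1 with DESeq2 (3.13%, 1.81% and 3.81% of all genes). E11 against earlier stages of CD44LowKitNeg (0) gave 1 with DESeq2 (5.07% of all genes). The dependence on stage (0) gave 1 without a filter (1.75% of all genes). It gave 0 to 1 without 1 library, the 1 being without CD44LowKitNeg replicate 12 (0.403% of all genes). The lowest counts came without CD44LowKitPos replicate 17 (0, beside 0.48% of all genes), replicate 18 (1 against CD44Neg, beside 1.175%), and replicate 19 or CD44High replicate 22 (2, beside 2.19% and 1.86%). The causes were not tested. No paired analysis was possible because the library numbers run from 1 to 22 and are not shared between populations; the stages, which populations do share, entered as a covariate or were matched instead. With 3 libraries each, CD44LowKitPos and CD44High calls rest on a spread borrowed from all 22 libraries.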
